A study of Rattus norvegicus with 4 samples.

Results

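The matrix metalloproteinases, the ADAMTS proteinases with their ADAMTS-like relatives and the tissue inhibitors of metalloproteinases were examined in rat fat. Members were the genes whose platform annotation gave exactly 1 symbol of the form Mmp, Timp, Adamts or Adamtsl followed by a number. There were 39 such genes among 14506 genes with a row of their own, 21 Mmp, 4 Timp, 11 Adamts and 3 Adamtsl. Only Adamts3 had more than 1 row, and the row with the higher mean was kept. The RefSeq annotation lists 50 rat genes with symbols of these forms, and the other 11, such as Mmp25, Adamts8 and Adamtsl2, were not analysed here.

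RNA came from retroperitoneal white fat, a visceral depot, of male WNIN/Ob rats aged 4 months that received no treatment and ate stock diet. The groups were 2 rats of the obese phenotype and 2 of the lean phenotype, 1 rat per Affymetrix Rat Gene ST array, and the labels give neither the obesity gene nor the genotype of the lean animals. All 10 adipocyte marker genes, among them Adipoq and Plin1, lay above the level of olfactory receptor genes on all 4 arrays. Lean rat 1 stood apart by skeletal muscle transcripts: 11 muscle genes summed to an intensity of 33921 there, against 518 to 717 on the other 3 arrays. In whole tissue, fewer cells of a type and less RNA per cell cannot be told apart.

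Matrix metalloproteinases are zinc enzymes that cut collagens, elastin, basement membrane and many non-matrix proteins. Most are made as inactive precursors and are held in check by the 4 TIMP proteins, which bind the active site. ADAMTS enzymes are related secreted proteinases that cleave proteoglycans such as versican and aggrecan or trim the ends of procollagens, whereas ADAMTS-like proteins share the accessory domains and lack the catalytic one. In growing fat, matrix has to be cut and rebuilt around enlarging adipocytes, and fibroblasts, vessel cells and macrophages all make these enzymes.

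Olfactory receptor genes, which are hardly transcribed outside the nose, served as the mark of unspecific signal. The 95th percentile of 53 such genes lay at a log2 intensity of 5.51 and 5.46 on the arrays of the obese rats and of 5.26 and 5.74 on those of the lean rats. A member at or below this value on an array is called near the olfactory level there. On all 4 arrays 14 members were near it, 11 of them Mmp genes, namely Mmp1, Mmp3, Mmp7, Mmp8, Mmp10, Mmp11, Mmp13, Mmp17, Mmp20, Mmp21 and Mmp27. The other 3 were Adamts3, Adamts14 and Adamts19.

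Above the level on all 4 arrays were 17 members. They included all 4 Timp genes, the gelatinase gene Mmp2, the membrane-type genes Mmp14 and Mmp15, and Mmp19, Mmp23 and Mmp28. The remainder were Adamts1, Adamts2, Adamts5, Adamts9 and Adamts12 with Adamtsl4 and Adamtsl5. In between were 8 members that passed the level on 1 to 3 arrays, Mmp9, Mmp12, Mmp16, Mmp24, Adamts4, Adamts7, Adamts15 and Adamtsl3. Levels of different genes are not set against each other, since probes differ in brightness.

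**Figure D1:**
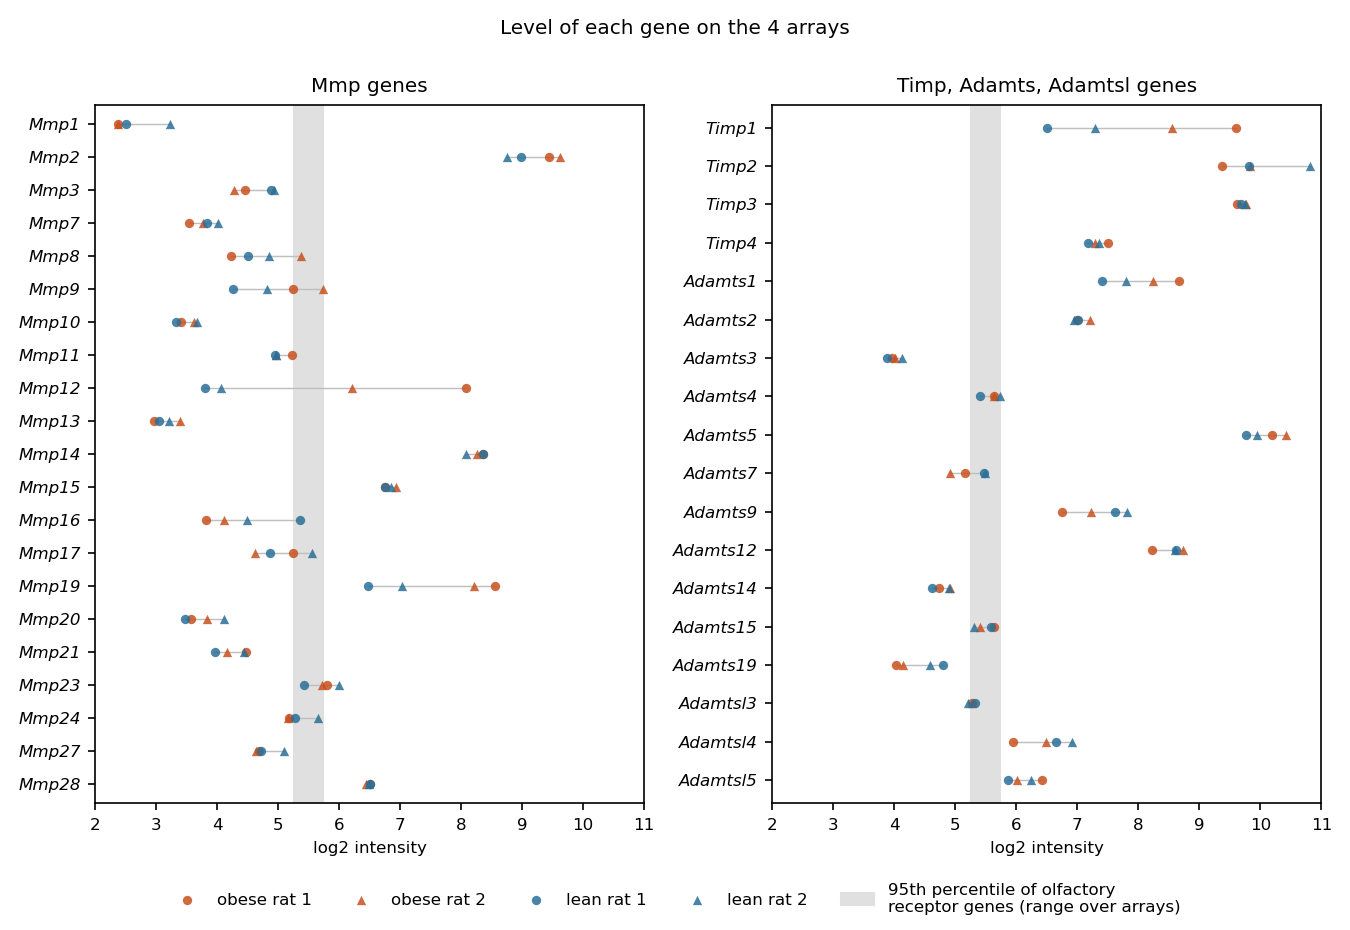
Log2 intensity of the 39 members on each of the 4 arrays, obese rats in orange and lean rats in blue (circles rat 1, triangles rat 2), Mmp genes left and Timp, Adamts and Adamtsl genes right. The grey band spans the 95th percentile of olfactory receptor genes over the arrays, 5.26 to 5.74, and 14 members stay at or below their array's value on all 4 arrays.

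The comparison of phenotypes asked which of these genes differed between obese and lean fat at baseline. Of the 39 members 1 rose, the macrophage elastase gene Mmp12, none fell and 38 did not pass limma's test at an adjusted p under 0.05. Over all 14506 genes 0.841% were called, 0.772% higher and 0.0689% lower, and 1 call among 39 members (2.56%) is too few to set the families apart from that background. At an unadjusted p under 0.05 there were 9 members (23.1%), against 15.3% of all genes. They were 5 higher and 4 lower, 12.8% and 10.3% of the members, against 9.93% and 5.33% of all genes. Of the lower ones, Adamts19 and Mmp3 were near the olfactory level on all 4 arrays and Mmp16 on 3, while Adamts9 was above it. The median of olfactory receptor genes was 3.18 and 3.25 on the obese arrays, against 3.58 and 4.07 on the lean arrays. The part of this shift in the lower values was not tested. Without lean rat 1, the array with muscle transcripts, no member was called while 1081 of all genes were. The order of the shares at an unadjusted p under 0.05 was then turned, with 11 members (28.2%) against 32.9% of all genes (limma). With quantile normalization these shares were 15.4% and 13.1%. The balance of 112 higher and 10 lower calls over all genes was also not kept, being 89 and 96 when every row of the array was tested. With a rat left out it was 664 and 417 (lean rat 1 absent), 195 and 282 (lean rat 2 absent), 148 and 120 (obese rat 1 absent) and 235 and 121 (obese rat 2 absent).

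The members' median lay close to 0. It was, as a difference of obese minus lean on the log2 scale, 0.039, against 0.00047 over all genes, and 27 of 39 lay within 0.5 of 0. The family medians were 0.039 for Mmp, 0.051 for Timp, 0.066 for Adamts and 0.0096 for Adamtsl. The groups did not overlap for 18 members (46.2%), against 47.7% of all genes. In 8 of these (20.5%) the obese rats were the higher and in 10 (25.6%) the lower, where the shares of all genes were 26.4% and 21.3%. Of the 14 members near the olfactory level on all arrays, 5 were among the lower and 1 among the higher. Rats of a group differed from each other by a median of 0.23 (obese) and 0.28 (lean) over the members. Since 0.333 is the smallest two-sided p of an exact permutation of 2 and 2 animals, the calls depend on limma's pooling of spread across genes.

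**Figure D2:**
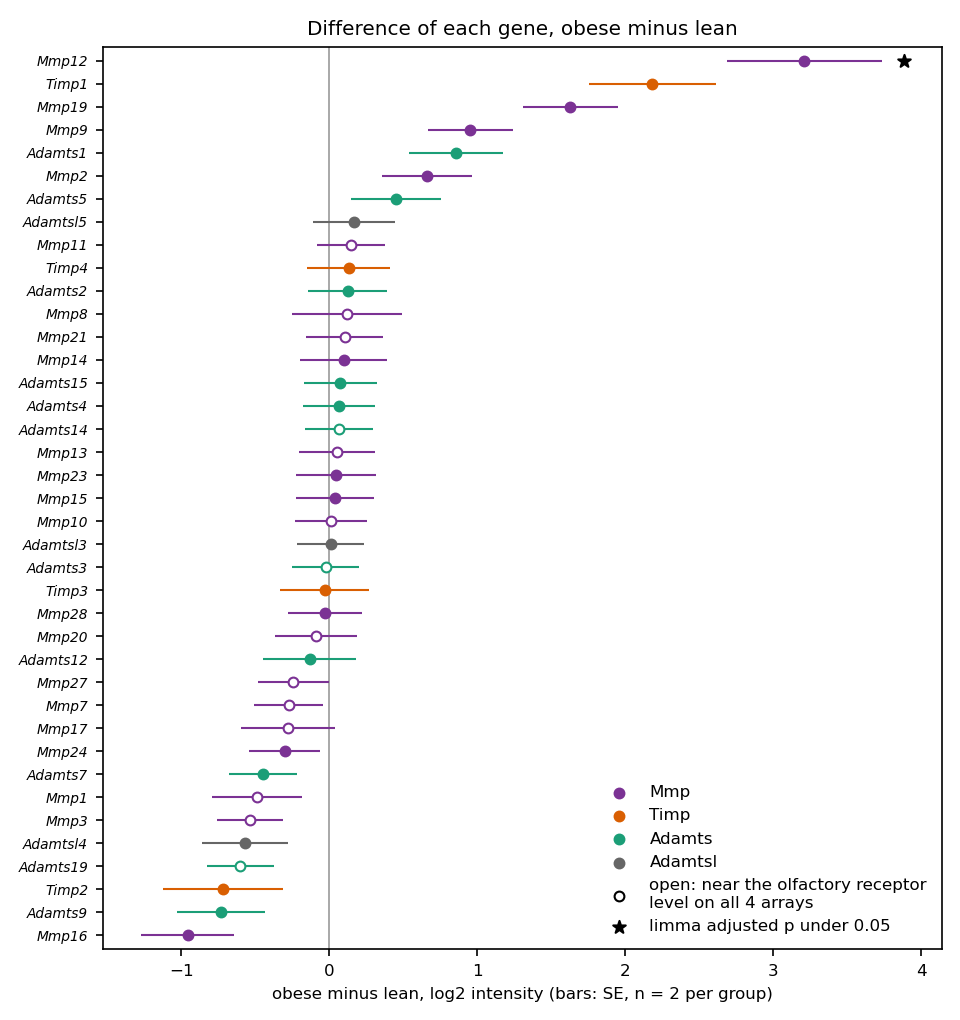
Difference of each member, obese minus lean in log2 intensity, with the SE of limma's fit (n = 2 rats per group), sorted and coloured by family. Mmp12 at 3.21 carries the only mark of an adjusted p under 0.05. Timp1 (2.18) and Mmp19 (1.63) follow, Mmp16 has the lowest value (-0.96), and open points are the 14 members near the olfactory level on all arrays.

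Mmp12 encodes the macrophage elastase, which degrades elastin and other matrix proteins. Its log2 intensity was 8.07 and 6.21 in the obese rats, against 3.80 and 4.07 in the lean rats. The groups did not overlap, the obese rats differed from each other by 1.86, and both lean values were near the olfactory level. The difference was 3.21 ± 0.52 (SE, n = 2 per group, limma adjusted p = 0.041). Because the lean values give only a bound, the obese mean was set against the olfactory level of the lean arrays. By that level, a 95th percentile, Mmp12 was at least 3.13-fold higher in obese fat. This bound depends on obese rat 1, being 1.64-fold without it and 5.96-fold without obese rat 2. It also depends on the percentile, since obese rat 2, at 6.21, was below the 99th percentile of olfactory receptor genes on its array, 6.64.

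The call of Mmp12 was close to the threshold. It was lost without lean rat 1 (3.08, limma adjusted p = 0.051) and without lean rat 2 (3.35, limma adjusted p = 0.065), and held without obese rat 1 (2.28) and without obese rat 2 (4.14). The other settings that ended it are given in the closing section.

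Mmp19, a secreted enzyme that cleaves basement membrane proteins, had log2 intensities of 8.55 and 8.21 in the obese rats, against 6.47 and 7.04 in the lean rats. All 4 values were above the olfactory level and the groups did not overlap. The difference was 1.63 ± 0.32, a ratio of 3.09, and the limma adjusted p of 0.073 missed the threshold. With quantile normalization the difference was 1.346 (limma adjusted p = 0.198). It passed without lean rat 2 (1.91, limma adjusted p = 0.027) and without obese rat 2 (1.80, limma adjusted p = 0.027). It did not pass without lean rat 1 (1.35, limma adjusted p = 0.0503) or without obese rat 1 (1.46, limma adjusted p = 0.185).

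The gelatinases, which cut denatured collagen and basement membrane collagen, were both higher in each obese rat than in each lean rat, and neither passed. Mmp2, a gelatinase of fibroblasts and other stromal cells, had log2 intensities of 9.43 and 9.62 in the obese rats, against 8.98 and 8.75 in the lean rats (difference 0.66 ± 0.30, limma adjusted p = 0.346). With quantile normalization the Mmp2 difference was 0.35. Mmp9, the gelatinase of leukocytes, had 5.24 and 5.74 in the obese rats, against 4.25 and 4.81 in the lean rats. Only obese rat 2 exceeded the olfactory level for Mmp9 (difference 0.95 ± 0.29, limma adjusted p = 0.203).

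Membrane-type enzymes sit on the cell surface, and Mmp14 of this class cuts fibrillar collagen and activates the Mmp2 precursor. Mmp14 had log2 intensities of 8.36 and 8.26 in the obese rats, against 8.35 and 8.07 in the lean rats, so the groups overlapped (difference 0.098 ± 0.29). Mmp15 and Mmp24, also of this class, were at 0.039 and -0.30, with Mmp24 near the olfactory level on 3 arrays. Mmp16 had 3.81 and 4.12 in the obese rats, against 5.35 and 4.49 in the lean rats, and only lean rat 1 was above the olfactory level. Its difference of -0.96 ± 0.32 did not pass (limma adjusted p = 0.230). The difference was -1.39 without lean rat 2, where lean rat 1 alone stands for the lean group. In the other 3 fits with a rat left out it was at -1.11 to -0.52.

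In the RefSeq annotation of GRCr8, 9 of the measured Mmp genes lie together on chromosome 8, in the order Mmp13, Mmp12, Mmp3, Mmp1, Mmp10, Mmp8, Mmp27, Mmp20 and Mmp7. Between them are 2 pseudogenes and Mmp1b, which were not analysed here. The stretch holds the collagenase genes Mmp1, Mmp8 and Mmp13, the stromelysin genes Mmp3 and Mmp10, the matrilysin gene Mmp7 and the enamel protease gene Mmp20. Mmp12 differed from the rest of it in level, since all 8 others were near the olfactory level on all 4 arrays.

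The 8 other genes of the stretch had differences from -0.54 (Mmp3) to 0.12 (Mmp8), with a median of -0.17, and none was called. Mmp3 had log2 intensities of 4.46 and 4.27 in the obese rats, against 4.88 and 4.93 in the lean rats. Mmp13, the measured gene next to Mmp12, had 2.96 and 3.40 in the obese rats, against 3.05 and 3.21 in the lean rats. Mmp1 was listed at the same value, 2.37, in both obese rats, and at 2.50 and 3.22 in the lean rats. At such levels a difference of either sign says little about the transcript.

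The remaining Mmp genes lie outside the stretch and were within 0.5 of 0. Mmp28, whose product is epilysin, and Mmp23 were above the olfactory level on all arrays and at -0.031 and 0.045. Mmp11, Mmp17 and Mmp21 were near that level on all arrays, at 0.15, -0.28 and 0.11.

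**Figure D3:**
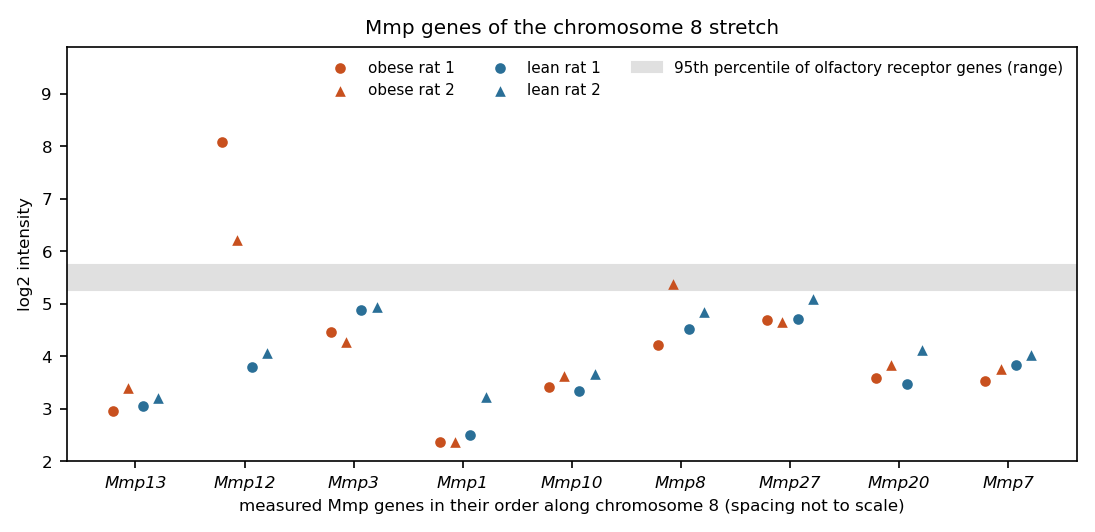
Log2 intensity on each array of the 9 measured Mmp genes of the chromosome 8 stretch, in gene order with spacing not to scale, obese rats in orange left of lean rats in blue. The obese rats stand at 8.07 and 6.21 for Mmp12, above the grey band of the 95th percentile of olfactory receptor genes, and every other gene of the stretch stays at or below that percentile of its array.

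The sequence before the start of these genes is shown because most genes of the stretch have a motif in common there, while Mmp12 alone was called. RefSeq's promoter table of GRCr8 held 30 of the 39 members. In the 250 bases before the start, 7 of the 9 genes of the stretch held the AP-1 type motif TGANTCA, which reads the same on both strands. None of the 21 other members in the table held it, and neither did Mmp8 and Mmp27 of the stretch. Over all 33469 promoters of the table the share was 6.34%. Motif TATAAA, on either strand, was in 8 of the 9, against 12.9% of all promoters, and both motifs together were in 1.02% of all promoters.

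The 120 bases before the start are given 5′ to 3′ in gene order, with TGANTCA matches in capitals.
Mmp13: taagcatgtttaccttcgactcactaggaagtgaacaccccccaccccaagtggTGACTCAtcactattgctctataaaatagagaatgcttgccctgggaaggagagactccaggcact
Mmp12: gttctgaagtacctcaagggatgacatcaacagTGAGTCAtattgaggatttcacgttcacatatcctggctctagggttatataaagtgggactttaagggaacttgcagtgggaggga
Mmp3: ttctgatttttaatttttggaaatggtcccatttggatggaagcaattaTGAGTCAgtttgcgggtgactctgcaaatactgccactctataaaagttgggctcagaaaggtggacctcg
Mmp1: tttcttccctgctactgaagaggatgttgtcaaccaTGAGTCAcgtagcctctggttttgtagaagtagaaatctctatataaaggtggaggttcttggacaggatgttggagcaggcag
Mmp10: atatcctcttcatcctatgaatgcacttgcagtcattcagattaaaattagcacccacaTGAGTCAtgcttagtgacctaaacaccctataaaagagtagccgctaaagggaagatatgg
Mmp20: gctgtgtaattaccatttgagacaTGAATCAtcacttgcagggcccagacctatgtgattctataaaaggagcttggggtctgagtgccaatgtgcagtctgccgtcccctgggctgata
Mmp7: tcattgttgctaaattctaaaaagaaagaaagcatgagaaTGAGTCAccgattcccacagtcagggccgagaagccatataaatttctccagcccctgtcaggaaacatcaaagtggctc

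All 7 windows are on the plus strand of GRCr8. That of Mmp12 is chr8:12866532-12866651, that of Mmp13 chr8:12782709-12782828, that of Mmp3 chr8:12925161-12925280 and that of Mmp1 chr8:12943333-12943452. Those of Mmp10, Mmp20 and Mmp7 are chr8:12974587-12974706, chr8:13074159-13074278 and chr8:13132923-13133042. The match nearest the start began 87 bases before it in Mmp12 and 61 (Mmp10) to 96 bases before it in the other 6. It read TGAGTCA in 5 genes, TGACTCA in Mmp13 and TGAATCA in Mmp20. Mmp12 therefore shares the motif with genes of the stretch that stayed near the olfactory level, and a match describes letters and not binding.

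Among the 4 inhibitors, Timp1 had the largest difference and none passed. Timp1 encodes a secreted inhibitor of most matrix metalloproteinases. Its log2 intensity was 9.60 and 8.56 in the obese rats, against 6.50 and 7.28 in the lean rats, so the groups did not overlap although the obese rats differed from each other by 1.04. The difference was 2.18 ± 0.43, a ratio of 4.55, with a limma adjusted p of 0.073. With quantile normalization the difference was 1.87 (limma adjusted p = 0.18). Leaving out 1 rat gave 2.57 (without lean rat 2), 2.70 (without obese rat 2), 1.67 (without obese rat 1) and 1.80 (without lean rat 1). The fits without an obese rat do not count the gap of 1.04 between the obese rats.

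The other 3 inhibitors had differences from -0.72 to 0.13. Timp2, which inhibits Mmp2 and also takes part in its activation at the cell surface, had log2 intensities of 9.37 and 9.82 in the obese rats, against 9.81 and 10.81 in the lean rats. The groups overlapped by a narrow margin, and the value of -0.72 ± 0.41 rested largely on lean rat 2, since it was -0.22 without that rat and -1.21 without lean rat 1. Timp3, the matrix-bound inhibitor that also blocks ADAMTS enzymes, had 9.62 and 9.77 in the obese rats, against 9.69 and 9.75 in the lean rats (difference -0.030 ± 0.30). Timp4 had 7.51 and 7.29 in the obese rats, against 7.18 and 7.36 in the lean rats (difference 0.13 ± 0.28, and -0.14 with quantile normalization). For Timp3 and Timp4 the rats of the groups were intermixed.

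No Adamts gene passed, and the proteoglycan-cleaving members differed in sign. Adamts1, a versican-cleaving enzyme, had log2 intensities of 8.67 and 8.24 in the obese rats, against 7.40 and 7.79 in the lean rats (difference 0.86 ± 0.32, limma adjusted p = 0.269). Adamts9, another enzyme that cleaves versican, had 6.75 and 7.22 in the obese rats, against 7.62 and 7.81 in the lean rats (difference -0.73 ± 0.30, limma adjusted p = 0.305). In both genes the groups did not overlap, with the obese rats above in Adamts1 and below in Adamts9. With quantile normalization the differences were 0.59 (Adamts1) and -0.99 (Adamts9).

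Adamts5, an aggrecan- and versican-cleaving enzyme whose gene is the next to Adamts1 in RefSeq, had 10.19 and 10.42 in the obese rats, against 9.77 and 9.94 in the lean rats (difference 0.45 ± 0.31). Its groups did not overlap either. Adamts4, an aggrecanase, was near the olfactory level on 1 array and Adamts15 on 2, at differences of 0.068 and 0.076. Adamts19 was near it on all 4, at -0.60 ± 0.22 (limma adjusted p = 0.274).

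The procollagen trimming enzymes, which remove the amino-terminal propeptide of fibrillar collagens, had overlapping groups. Adamts2 had log2 intensities from 6.94 to 7.20 over the 4 rats (difference 0.12 ± 0.27), while Adamts3 and Adamts14 were near the olfactory level at -0.023 and 0.066. Adamts12, an enzyme that cleaves cartilage oligomeric matrix protein, was at -0.13, and the related Adamts7 was at -0.45 with 3 of 4 values near the olfactory level. Among the ADAMTS-like genes, Adamtsl4, whose protein binds fibrillin microfibrils, had 5.95 and 6.49 in the obese rats, against 6.65 and 6.91 in the lean rats (difference -0.57 ± 0.29, limma adjusted p = 0.395). Adamtsl3 and Adamtsl5 were at 0.0096 and 0.17.

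**Figure D4:**
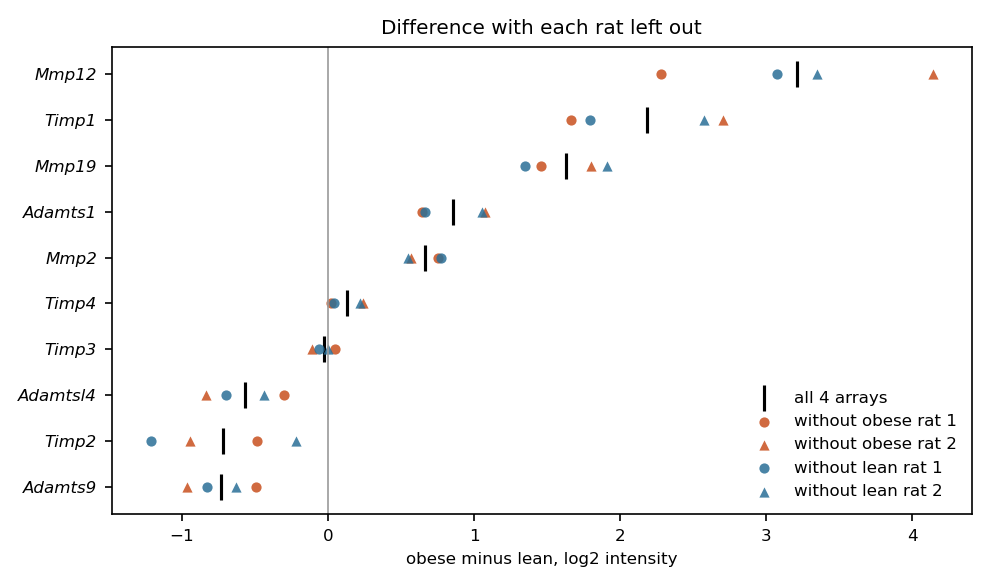
Difference in log2 intensity, obese minus lean, of the 10 members named by rule, with all 4 arrays (bar) and with each rat left out in turn (orange for an obese rat, blue for a lean rat, circle rat 1, triangle rat 2). Mmp12 runs from 2.28 without obese rat 1 to 4.14 without obese rat 2, Timp2 from -1.21 to -0.22, and Timp3 changes sign.

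Genes that act on these enzymes were counted as separate lists. Of 12 proteases of precursor activation (furin-type, plasmin system and cathepsins), St14, the membrane serine protease matriptase, rose and no other passed (list median 0.065). Over all genes 0.772% rose. St14 had log2 intensities of 7.37 and 6.83 in the obese rats, against 5.35 and 5.00 in the lean rats (difference 1.93 ± 0.29, limma adjusted p = 0.030, and 0.061 with quantile normalization or with all rows tested). Its value in lean rat 2 was near the olfactory level. None of 10 other inhibitors and clearance receptors passed (median -0.055). The smallest p values there were those of Spock2, a testican proteoglycan (-0.93, limma adjusted p = 0.129), and Pzp (-0.78). Spock2 was near the olfactory level in both obese rats and Pzp on all 4 arrays.

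Surface partners, related proteinases and substrates held no call. Among 6 surface partners, the hyaluronan receptor Cd44, which docks Mmp9, was at 1.09 (limma adjusted p = 0.174) and Sdc1 at 0.68. Among 7 ADAM genes the median was 0.58, with Adam23 at 0.94 and the sheddase Adam17 at 0.89. In 4 the obese rats were above and in 3 below both lean rats, where all genes gave 26.4% and 21.3%. The 4 higher genes were above the olfactory level on all arrays. Of the 3 lower genes, Adam28 and Adamdec1 were near it on all 4 arrays and Adam11 on 3. The 4 astacin proteinases had a median of -0.027, with Tll1 at -0.37 and Mep1a at 0.18. Tll1 was near the olfactory level on 3 arrays and Mep1a on all 4. Of 18 substrates none passed (median -0.058). Ltbp1, a matrix protein that holds latent TGF-beta, was at -1.42 ± 0.27 (limma adjusted p = 0.068) and the proteoglycan Bgn at 1.24 (limma adjusted p = 0.140).

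None of 12 AP-1 and ETS factors, which bind the TGANTCA motif or act beside it, passed (median -0.17). Spi1, the ETS factor of myeloid cells, was at 1.56 ± 0.34 (limma adjusted p = 0.098) and Etv5 at 1.09, with both lean values of Etv5 near the olfactory level. The AP-1 genes differed in sign. Jun was at -0.44, Fosl1 at -0.88 and Fosl2 at -0.17, whereas Fos was at 0.38, Junb at 0.34 and Jund at 0.099. Fosl1 was near the olfactory level in both obese rats and at -0.33 without lean rat 2.

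Macrophage markers were counted beside Mmp12, Mmp19 and Timp1. Of 12 markers 3 rose, Lyz2 (3.92, limma adjusted p = 0.016), Mpeg1 (2.71, limma adjusted p = 0.011) and Itgam (2.30, limma adjusted p = 0.025, and 0.057 with quantile normalization), none fell, and the list's median was 1.27. Groups overlapped for 4 of the 12, C1qa (0.27), Cd14 (0.15), Cd163 (-0.054) and Marco (-0.11). Over all genes 0.772% rose, and the groups did not overlap for 47.7%. The summed intensity of the 12 was 11506 and 7101 in the obese rats, against 3610 and 3154 in the lean rats, and only Marco was near the olfactory level on all 4 arrays. Of the obese rats, rat 1 had the larger sum and the higher Mmp12, Mmp19 and Timp1. Of the lean rats, rat 1 had the larger sum and the lower Mmp12, Mmp19 and Timp1. Both lean Mmp12 values were near the olfactory level, and the list's median log2 intensity was 7.71 in both lean rats. Single markers went either way, with Cd14 at 10.08 and 9.41 and Cd68 at 7.77 and 8.88 in lean rats 1 and 2. The part of macrophage number in the differences of Mmp12, Mmp19 and Timp1 was not tested.

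Of 8 neutrophil markers none passed, the median was -0.040, and S100a8, S100a9, Ngp, Ltf, Camp and Elane were near the olfactory level on all 4 arrays, as was the neutrophil collagenase gene Mmp8. Their summed intensity was 444 and 697 in the obese rats, against 496 and 555 in the lean rats. Most of this sum was Mpo, which encodes myeloperoxidase, at 311 and 550 in the obese rats and 345 and 405 in the lean rats (intensity). Without Mpo, a choice made after seeing the data, the sums were 133 and 147 in the obese rats, against 150 and 150 in the lean rats.

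**Figure D5:**
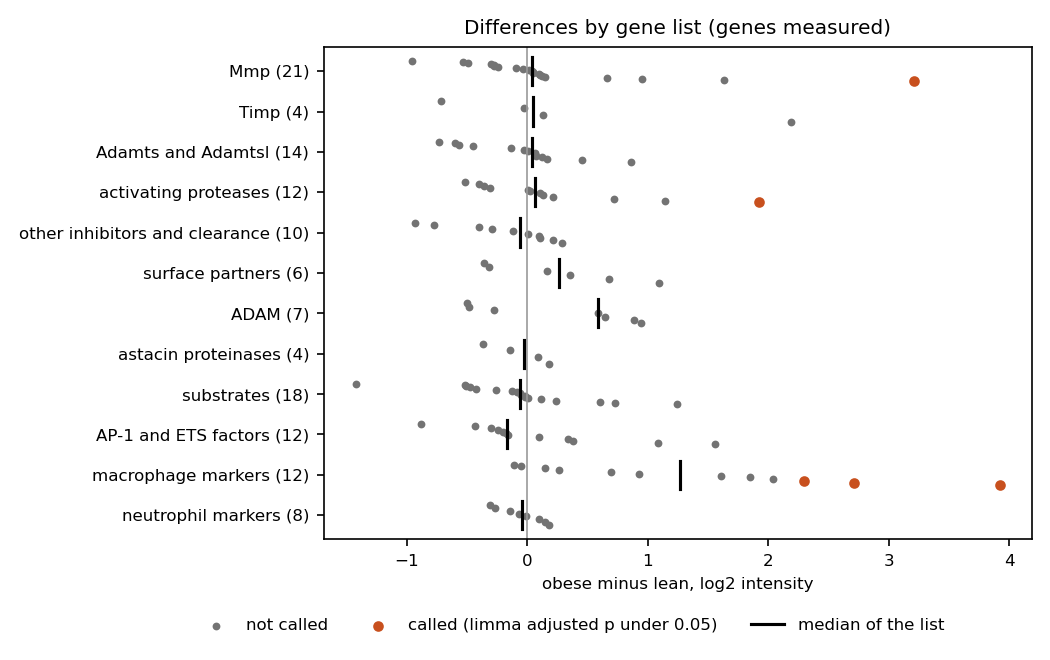
Difference in log2 intensity, obese minus lean, of each measured gene by list, with the number measured in brackets, the list median as a bar and called genes in orange. The medians of the Mmp, Timp and combined Adamts and Adamtsl genes lie near 0, that of the macrophage markers at 1.27, and the called genes shown are Mmp12, St14, Itgam, Mpeg1 and Lyz2.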

How the data were processed

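The authors deposited 1 intensity per row and array on a linear scale (2.03 to 12791). The submitters' processing notes name RMA, and its software, its probe-set level and the build were not given in the sources used here. RMA commonly includes quantile normalization, which can hide a change that most genes share, although the deposited arrays still differed in median and spread. Intensities were taken to log2 without a pseudocount. Of 29214 rows, 15310 had 1 gene symbol in the platform annotation, 323 several and 13581 none in that table. The brightest row per gene gave 14506 genes, and all 39 members matched RefSeq by gene ID. Their array rows are taken as given, and coordinates are RefSeq's (GRCr8).

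The phenotypes were tested in limma 3.58.1, R 4.3.3 (lmFit, eBayes with trend, 4 arrays, no covariate), with Benjamini-Hochberg adjustment over all genes at 0.05. The procedure was tested on simulated data, where the share of false calls exceeded the nominal rate. Members and lists were chosen with earlier results of these data known. The 10 members named by rule are called members, all Timp genes, and members above the olfactory level on both arrays of a group with an unadjusted p under 0.05 or a difference of at least 0.5 without overlap. Other members are given where their role or level is described, and Mmp9 and Mmp16 were chosen after their values were seen. Each list is shown by up to 3 called genes or its 2 smallest p. Further genes (Jun, Fosl1, Fosl2, Fos, Junb, Jund, Cd14, Cd68) were chosen after their values were seen. Alternatives covered normalization, variance models, filters, row choice, a rat number block, the threshold and each rat left out. Proteins were not used here. Figures were drawn with matplotlib 3.10.9.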

Additional observations from a re-analysis of the deposited data

How the results depend on the processing

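The number of genes called, 122, was 69 with quantile normalization, 185 over all rows, 262 with a robust variance model, 301 at an adjusted p under 0.10 and 268 to 1081 with a rat left out. The number of members called, 1, was 0 with quantile normalization, over all rows, without the variance trend, without the lowest 25% of genes and without genes at the olfactory receptor level (limma, with 6, 8, 9, 6 and 6 members at an unadjusted p under 0.05, which is 15.4%, 20.5%, 23.1%, 20.7% and 24% of those tested, against 13.1%, 13.3%, 15.3%, 16% and 17.1% of all features). In those settings the limma adjusted p of Mmp12 was 0.061, 0.084, 0.055, 0.052 and 0.067, in the filters beside fewer genes tested. It was 2 with the robust model (Mmp19 and Timp1, limma adjusted p = 0.038 and 0.030, while that of Mmp12 was 0.130), 3 at an adjusted p under 0.10 and 0 (without lean rat 1, limma, 11 members or 28.2% at an unadjusted p under 0.05, against 32.9% of all genes) to 3 with a rat left out. The cause of these changes was not tested. With the rat number as a replicate block, 327 genes and 3 members were called (Mmp12, Mmp19 and Timp1). The numbers are not known to pair the rats, whose deviations correlated across genes at 0.020. The members' median ran from -0.072 (without lean rat 1) to 0.092 with a rat left out and was -0.035 with centred arrays and -0.029 with quantile normalization. Timp3 lay between -0.11 and 0.046 in the fits that leave out a rat, above 0 in the absence of lean rat 2 (0.0028) or obese rat 1 (0.046). With quantile normalization Timp3 was at -0.33 and Timp4 changed sign (-0.14). Near the olfactory level on all arrays were 14 members, or 23 with the 99th percentile and 1, Mmp1, with the median. Of 130 values of the 10 members named by rule under other settings, 111 kept their sign and their side of the threshold. This count says little about stability. The row, variance-model, block and filter settings left these differences unchanged, and of the 10 only Mmp12 was called at first. With 1 rat left out the lone rat of a group is assumed to vary like the others, so calls from those fits do not show that a result holds. The small number of arrays limits the precision.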

Other observations

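Markers of the other tissue cells gave no call, and their values were as follows. Over all genes, 9.93% were higher and 5.33% lower at an unadjusted p under 0.05 (limma). Of 8 mast cell markers none passed (limma, 1 lower at an unadjusted p under 0.05). Their median difference, obese minus lean on the log2 scale, was -0.51, with Mcpt1 at -0.76 and Fcer1a at -0.59, both near the olfactory level on all arrays, and the median was -0.12 without obese rat 1. Of 7 endothelial markers none passed (limma, 3 lower at an unadjusted p under 0.05), with a median of -0.49, and Emcn at -1.19 and Plvap at -0.89 had the smallest p. Of 6 mesothelial markers none passed (limma, 2 lower at an unadjusted p under 0.05), with a median of -0.92 and of -0.50 without lean rat 1. Gpm6a at -1.01 and Krt18 at -1.24 had the smallest p. Both were near the olfactory level on 3 arrays, and they were at -0.71 and -0.67 without lean rat 1. Of 11 fibroblast and progenitor markers none passed (limma, 2 higher at an unadjusted p under 0.05). The fibroblast median was -0.015, with Thy1 at 1.35 (limma adjusted p = 0.074) and Pdgfrb at 0.69. Of 10 adipocyte markers none passed (limma, 1 higher at an unadjusted p under 0.05), with a median of 0.23 and Lep at 1.56. Of the 11 muscle markers none passed (limma, 3 lower at an unadjusted p under 0.05), with a median of -3.13, Myoz1 at -2.55 and Tnnt3 at -3.21. Without lean rat 1 their median was -0.25, with Myoz1 at -0.67 and Tnnt3 at -0.79.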
